A study of Oryza sativa Japonica Group with 10 samples.

Results

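The 6 rice genes described here make the plant hormone strigolactone or pass its signal on: D27 (LOC_Os11g37650), D17 (LOC_Os04g46470), D10 (LOC_Os01g54270), D3 (LOC_Os06g06050), D14 (LOC_Os03g10620) and D53 (LOC_Os11g01330). They were chosen by locus identifier for their known roles, not by their levels in these libraries. Earlier results of these data were known when they were chosen. The ending -ext that some rows of the table carry was ignored. Of the 6 genes, 5 had a row among the 33486 rows of the count table, and 4 were among the 19234 rows with enough counts to be tested. D27 had no row under its identifier and was not analysed here.

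Strigolactones are made from carotenoids in plastids: D27 isomerizes β-carotene, and the carotenoid cleavage dioxygenases D17 and D10 then turn the product into carlactone, the precursor that cytochrome P450 enzymes finish. D14 is the α/β-hydrolase that binds and cleaves the hormone, D3 is the F-box protein through which a ubiquitin ligase is recruited, and D53 is the repressor that this ligase marks for destruction. Mutants of these genes in rice are known for dwarfism and excess tillers, and roots are a main site of synthesis, from which strigolactones also pass into the soil.

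Polyadenylated RNA was measured in 10 libraries of the rice cultivar Nipponbare (GSOR-100), all without any genetic change or chemical treatment named in the labels. Root tips, which held the meristem and the elongation zone, were cut from the roots, and what was left of the root system was collected as mature root. Seedlings went into Hoagland solution at 12 days of age, with roots as well as shoots in the light, and were sampled either 2 or 6 days later. Each day gave 3 root tip and 2 mature root replicates, and each replicate pooled 6 plants. By the labels, the pools are biological replicates. The time in solution, the age of the plants and the day of harvest cannot be told apart. Mature root is a mixture of all root cells behind the tip, and in such bulk samples fewer cells of a type and less RNA per cell cannot be told apart.

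Totals ran from 986907 to 2001408 counts in tips on day 2, from 1428128 to 2560074 in tips on day 6, and from 2161392 to 3286439 in mature root, so a count of 3 equalled between 0.809 and 2.69 counts per 1000000 (CPM). The tissue labels were checked against 2 marker lists. Of 11 rows for dividing cells, 10 were described as minichromosome maintenance proteins, which act in DNA replication, and 1 as a B-type cyclin. Among them 10 were tested, 0 passed the test between tissues with edgeR or DESeq2, and 2 had an unadjusted p under 0.05. Of all 19234 rows tested, 5563 had such a p between tissues. The summed level of the rows for dividing cells was 186 to 376 CPM in tips and 156 to 246 CPM in mature root, so this list did not separate the tissues. The 5 rows for differentiated root were 3 cellulose synthases of secondary walls, 1 aquaporin and 1 row described as an expressed protein. Of these 5, 3 were lower in the tip, against 9.02% of all tested rows. Their summed level was 990 to 2620 CPM in tips and 2840 to 5080 CPM in mature root. No row of either list was at 0 in all libraries of a tissue.

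The row descriptions were compared with the gene names. They matched for D17 (carotenoid cleavage dioxygenase 7), D3 (OsFBL27, an F-box protein with leucine-rich repeats) and D14 (an alpha/beta-fold hydrolase). The row of D53 was described only as an expressed protein. The row of D10 was described as an unclassified transposon protein, which goes against its name, so its values are given for the row LOC_Os01g54270-ext and its identity as D10 rests on the identifier alone. The summed exon length was 2494 bases for D17, 2423 for D10, 6681 for D3, 5525 for D14 and 4067 for D53. The names of the rows for D10 and D53 carried the ending -ext, whose meaning the sources used here do not give.

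Between tissues, the hormone receptor and the repressor were lower in the root tip than in mature root, and the test detected no difference for the dioxygenase D17 and the F-box gene D3. D14 was 2.81-fold lower and D53 5.10-fold lower in the tip as the mean of both days. In the same comparison 12.2% of all tested rows passed the threshold in either direction (edgeR's quasi-likelihood test, Benjamini-Hochberg adjusted p under 0.05 over all 19234 rows) and 9.02% passed it as lower in the tip, against 2 of the 4 tested strigolactone genes. For 7.34% of tested rows every tip library lay below every mature root library, and D14 and D53 were the 2 strigolactone genes with that pattern.

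**Figure D1:**
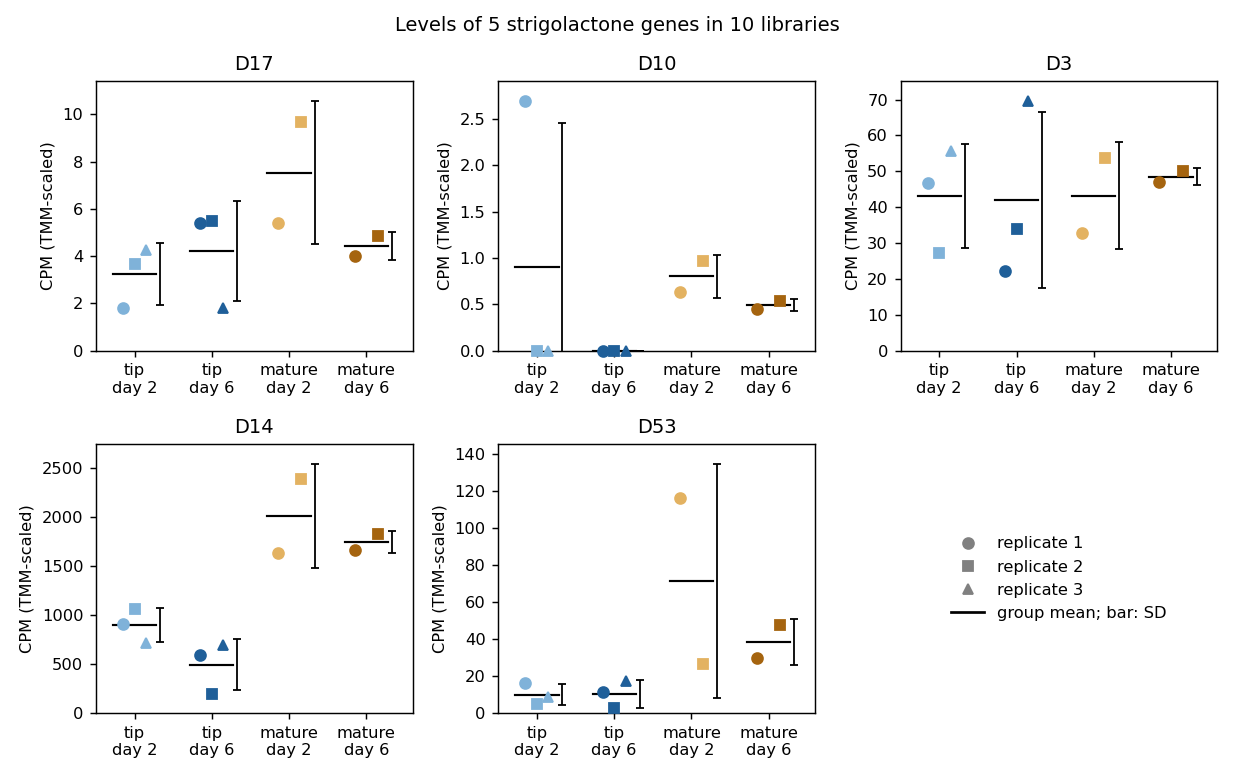
TMM-scaled CPM (y axis, linear, a separate scale for each gene) of the 5 strigolactone genes with a row, in the 4 groups of libraries (x axis). Each point is a library, its shape gives the replicate number, horizontal lines are group means and vertical bars are SDs. All 6 tip libraries sit below all 4 mature root libraries for D14 and D53, and the groups overlap for D17, D10 and D3.

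For synthesis, D17 cleaves the isomerized carotene and was a gene of low counts in every library. Its level was 1.80, 3.67 and 4.28 CPM in the day 2 tips and 5.39, 5.47 and 1.80 CPM in the day 6 tips. Mature root gave 5.40 and 9.68 CPM on day 2 and 4.02 and 4.86 CPM on day 6. The lowest values were tip libraries and the highest was a mature root library, but the tissues overlapped. These levels rest on 2 to 20 counts per library and 104 in all. Over both days D17 averaged 3.73 ± 1.65 CPM (SD) in 6 tip and 5.99 ± 2.53 CPM (SD) in 4 mature root libraries. The log2 fold change was -0.63 (SE 0.56, 95% interval -1.84 to 0.58; edgeR adjusted p = 0.490), so neither no difference nor a tip level more than 3-fold lower lay outside the interval. The pooled counts, 40 in tips and 64 in mature root, gave a ratio of mature root to tip of 1.496 per unit of depth, with an exact 95% interval of 0.992 to 2.28 that covers counting error only.

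D10 encodes the second cleavage dioxygenase of the pathway, and its row was close to the limit of detection. It had 3 counts in tip replicate 1 of day 2 and 0 counts in the other 5 tip libraries. The mature root libraries had 2 and 2 counts on day 2 and 1 and 2 counts on day 6. All 4 mature root libraries therefore held reads of this row and 1 of 6 tip libraries did, but with 10 counts in total the row failed the filter on low counts. A count of 0 in those 5 tip libraries allows a level of up to 1.17 to 2.31 CPM, which is above the 0.447 to 0.968 CPM seen in mature root. The ratio of mature root to tip over pooled counts was 2.18, with an exact 95% interval of 0.498 to 13.1. An exact two-sided permutation test over all 210 assignments of the libraries to tissues gave a difference of -0.43 in mean log2 CPM with p = 0.333, where the smallest p possible was 0.00476. That difference was computed with a prior count of 2 and depends on it: with a prior count of 0.5 it was -1.28, with p = 0.119 in the same exact test. A tissue difference of D10 was thus not detectable at this depth.

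D3, the F-box subunit, had the most even level of the tested genes between tissues. Tips gave 46.7, 27.1 and 55.6 CPM on day 2 and 22.3, 34.0 and 69.6 CPM on day 6. Mature root gave 32.7 and 53.7 CPM on day 2 and 46.9 and 50.2 CPM on day 6. The lowest and the highest library were both day 6 tips, and all 4 mature root values lay inside the range of the tips. The means were 42.6 ± 18.1 CPM (SD) in 6 tip and 45.9 ± 9.21 CPM (SD) in 4 mature root libraries. The log2 fold change was -0.10 (SE 0.43, 95% interval -1.03 to 0.82; edgeR adjusted p = 0.903). Differences of up to about 2-fold in either direction lay within or near that interval.

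The row of D14, the receptor, was among the most abundant of the table. Tips gave 911, 1063 and 721 CPM on day 2 and 596.5, 198 and 695.5 CPM on day 6. Mature root gave 1636 and 2388 CPM on day 2 and 1665 and 1823 CPM on day 6. The highest tip library, replicate 2 of day 2, lay well below the lowest mature root library, and the lowest library of all was tip replicate 2 of day 6. The mean was 697.5 ± 296 CPM (SD) in 6 tip and 1878 ± 349.7 CPM (SD) in 4 mature root libraries. D14 was lower in the tip by a log2 fold change of -1.49 (SE 0.31, 95% interval -2.16 to -0.82; edgeR adjusted p = 0.00982). The difference passed the threshold with each library left out in turn, except without mature root replicate 2 of day 2, where it was -1.35 with adjusted p = 0.0548.

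Per length, D14 averaged 126 CPM per kb in tips and 339.9 CPM per kb in mature root, where the median tested row had 7.19 and 7.66. On that scale it took rank 610 of 19234 tested rows in tips and rank 137 in mature root. D14's row spans 7 exons and 5525 summed bases, and the table does not say which transcripts of the locus the reads came from. These levels and ranks are thus those of the row, and were not shown to be those of the receptor's transcript alone.

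D53, the repressor, had the largest tissue difference of the 4 tested strigolactone genes and also uneven mature root replicates. Tips gave 16.2, 5.13 and 9.09 CPM on day 2 and 11.6, 2.74 and 17.5 CPM on day 6. Mature root gave 116 and 26.6 CPM on day 2 and 29.9 and 47.5 CPM on day 6. The highest tip library was below the lowest mature root library, while mature root replicate 1 of day 2 stood 4.37-fold above its partner. The mean was 10.4 ± 5.89 CPM (SD) in 6 tip and 55.1 ± 41.8 CPM (SD) in 4 mature root libraries. The log2 fold change was -2.35 (SE 0.58, 95% interval -3.61 to -1.09; edgeR adjusted p = 0.0210). D53 no longer passed without mature root replicate 1 of day 2 (-1.66, adjusted p = 0.127), replicate 1 of day 6 (-2.51, adjusted p = 0.0557) or replicate 2 of day 6 (-2.17, adjusted p = 0.0754), and it stayed lower in the tip each time.

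**Figure D2:**
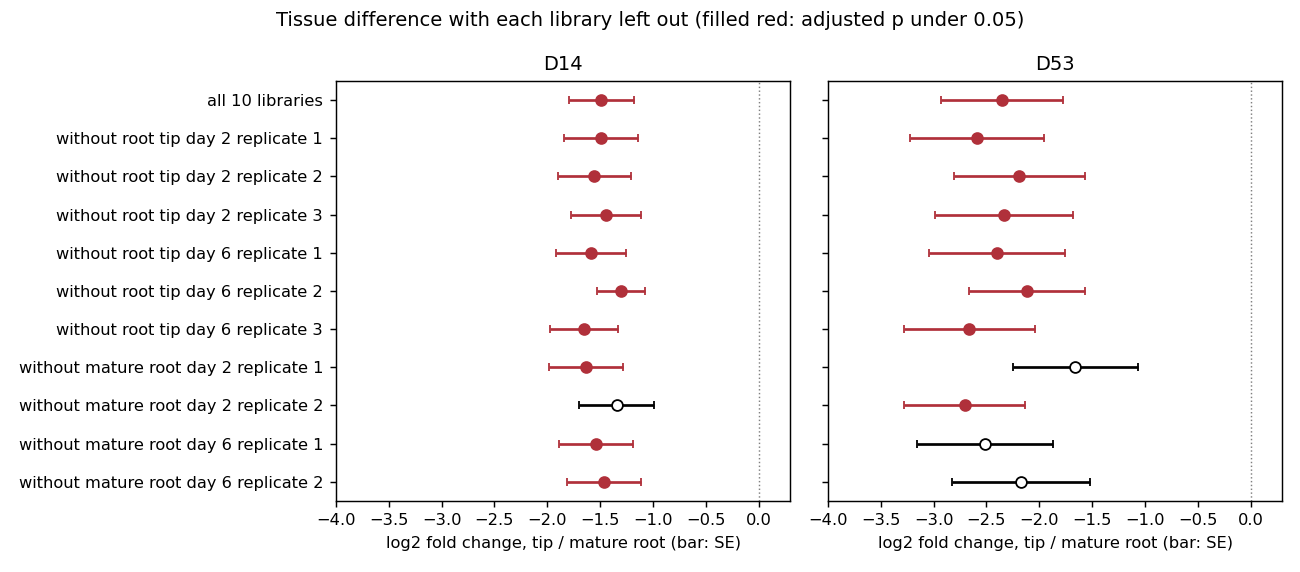
Log2 fold change of tip over mature root (x axis, mean of both days, bars are SEs) for D14 and D53 with all 10 libraries and with each library left out (y axis). Filled red points have an adjusted p under 0.05. The call of D14 is lost without 1 mature root library and that of D53 without 3, and all points are below 0.

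The row LOC_Os12g01360, described in the table as an expressed protein, was listed beside D53 because the ends of rice chromosomes 11 and 12 are known to share a duplicated segment. The neighbouring rows LOC_Os11g01340 and LOC_Os12g01370 were both described as fatty acid desaturases. Sequence likeness was not checked, so reads of D53 and of that row could have been split between them. LOC_Os12g01360 gave 6.64 to 22.3 CPM in tips and 31.1 to 99.01 CPM in mature root, again without overlap. It was lower in the tip by -2.04 on the log2 scale (SE 0.44; edgeR adjusted p = 0.0116). D53 held between 29.2% and 78.9% of the counts of both rows together, with the highest share in mature root replicate 1 of day 2. When the counts of both rows were summed, the tissue difference was -2.28 (SE 0.45, adjusted p = 0.00739).

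The tissue difference was then examined on each day, where 3 tip libraries met 2 mature root libraries. On day 2, 1.15% of all rows passed and 0 of the 4 tested strigolactone genes did. D14 and D53 had an unadjusted p under 0.05, as did 3212 of all 19234 rows tested. D53 had a log2 fold change of -2.83 (SE 0.83; edgeR adjusted p = 0.122) and D14 of -1.16 (SE 0.44; edgeR adjusted p = 0.208). With DESeq2, which called 1034 of 18908 rows on day 2, D53 passed (-2.84, adjusted p = 0.0256). D17 had -1.16 (SE 0.79) and D3 0.00 (SE 0.60) on that day, both with intervals that included 0.

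On day 6, 7.08% of all rows passed, and D14 was the 1 strigolactone gene that did. It was lower in the tip by -1.81 (SE 0.44, 95% interval -2.77 to -0.86; edgeR adjusted p = 0.0311), or 3.51-fold. That call was lost when only the day 6 libraries were fitted (-1.83, adjusted p = 0.0881) and without tip replicate 2 of day 6 (-1.44, adjusted p = 0.0545), mature root replicate 2 of day 2 (-1.82, adjusted p = 0.0502), or mature root replicate 1 (-1.91, adjusted p = 0.147) or 2 (-1.76, adjusted p = 0.111) of day 6. D53 had -1.87 (SE 0.81; edgeR adjusted p = 0.171) on day 6, and the sum with LOC_Os12g01360 had -2.45 (adjusted p = 0.0404). LOC_Os12g01360 alone had -2.82 (SE 0.63; edgeR adjusted p = 0.0233) on that day, so the call of the sum is not a call of D53. With only the day 6 libraries fitted, LOC_Os12g01360 did not pass (-2.83, edgeR adjusted p = 0.0627). D17 and D3 had -0.09 (SE 0.79) and -0.21 (SE 0.60).

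**Figure D3:**
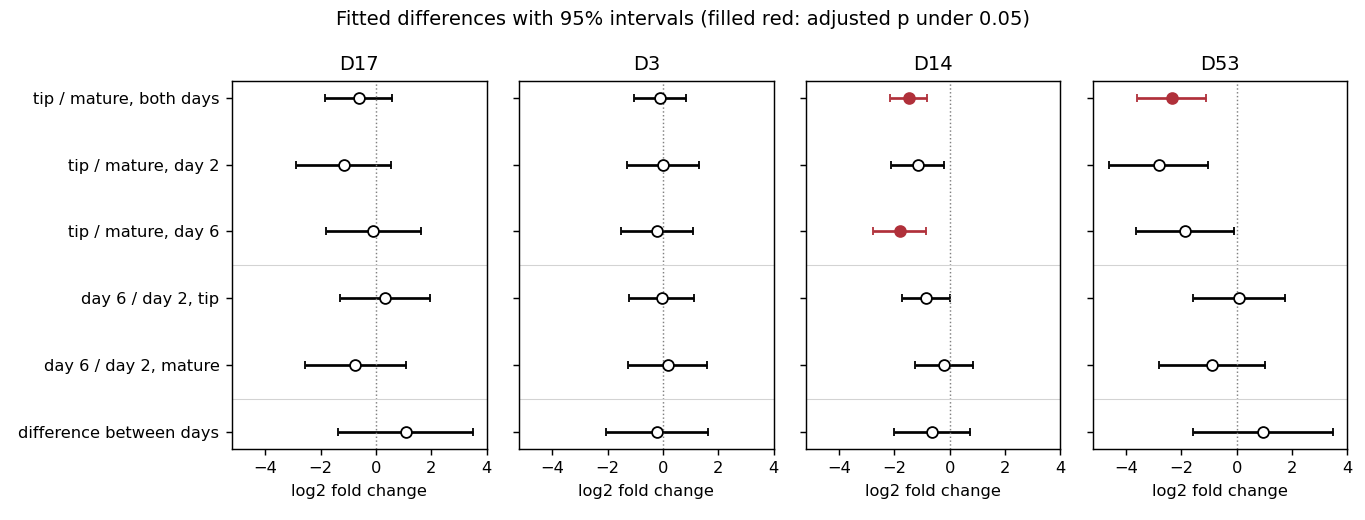
Fitted log2 fold changes (x axis) with 95% intervals for the 4 tested strigolactone genes in 6 comparisons (y axis: tip over mature root for both days and for each day, day 6 over day 2 in tips and in mature root, and the tissue contrast of day 6 minus that of day 2). Filled red points have an adjusted p under 0.05. D14 and D53 are below 0 in all 3 tissue comparisons, and the 3 comparisons that involve time hold no called point.

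Between day 2 and day 6 no strigolactone gene passed the test in either tissue, and 0% of all rows did in the tip, in mature root, and in the test of whether the tissue contrast itself differed by day. In these 3 comparisons 0 of the 4 tested strigolactone genes had an unadjusted p under 0.05 with edgeR. Of the 19234 rows tested, 2063, 2072 and 1821 did, and 0 of 4 genes is not set apart from such shares. DESeq2 called 130 of 11849, 375 of 17416 and 94 of 16297 rows there. It called 0 of the strigolactone genes, of which it gave an adjusted p to 3, 4 and 3. D14 came nearest, in the tip, with a log2 fold change of -0.86 (SE 0.40, 95% interval -1.72 to 0.01, edgeR adjusted p = 0.470). All 3 day 6 values lay below all 3 day 2 values there, and the share of all rows with that pattern was not counted. In mature root D14 changed by -0.21 (SE 0.49), well inside its error. The largest shift in mature root was that of D53, at -0.88 (SE 0.88; edgeR adjusted p = 0.779), and it turned to 0.57 without replicate 1 of day 2. For day 6 minus day 2 of the tissue contrast, D14 gave -0.65 (SE 0.63; edgeR adjusted p = 0.747) and D53 0.95 (SE 1.17; edgeR adjusted p = 0.804), so a change of either tissue difference with time was not shown.

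The order of the 4 groups followed from these values. D14 and D53 had their highest mean in mature root of day 2 (2012 ± 531.4 and 71.4 ± 63.3 CPM; SD, n = 2), then in mature root of day 6 (1744 ± 112 and 38.7 ± 12.4 CPM; SD, n = 2). For both genes the mature root ranges of the days overlapped, so their order there is not resolved. In tips D14 averaged 898 ± 171 CPM on day 2 and 497 ± 263 CPM on day 6 (SD, n = 3 each), and D53 10.1 ± 5.59 and 10.6 ± 7.43 CPM (SD, n = 3 each). D17 was ordered mature root day 2, mature root day 6, tip day 6 and tip day 2 (7.54 ± 3.03 and 4.44 ± 0.592 CPM, SD, n = 2 each, then 4.22 ± 2.10 and 3.25 ± 1.29 CPM, SD, n = 3 each). For D17 the mature root days did not overlap, with n = 2 each, and the share of all rows with that pattern was not counted. Tip day 6 of D17 overlapped both of its neighbours in that order. The 4 group means of D3 lay between 42.0 and 48.5 CPM and all neighbours overlapped.

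Compared per length, the receptor row stood above the other 4 strigolactone genes with a row. The order of mean levels in mature root was D14 (339.9 CPM per kb), D53 (13.5), D3 (6.87), D17 (2.40) and D10 (0.267). In tips it was D14 (126), D3 (6.37), D53 (2.55), D17 (1.497) and D10 (0.185), so D53 and D3 changed places. Within single libraries, the ratio of D53 to D3 per length ran from 0.132 to 0.850 in tips, with a median of 0.362, and from 0.814 to 5.84 in mature root, with a median of 1.301. The highest tip value exceeded the lowest mature root value, so the 2 sets of ratios overlapped. These ratios do not depend on how libraries are scaled.

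The ratio of D3 to D14 per length was 2.11% to 14.2% in tips and 1.65% to 2.33% in mature root, with medians of 5.31% and 2.07%. It was lowest in mature root and spread widest among the day 6 tips, with an overlap of the tissues at the low end of the tips. The ratio of D53 to D14 was 0.656% to 3.42% in tips and 1.51% to 9.65% in mature root, and the ranges overlapped: 2 of the 4 mature root libraries lay inside the range of the tips. The receptor and the repressor thus both stood lower in the tip, and no shift between them was separated by tissue.

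**Figure D4:**
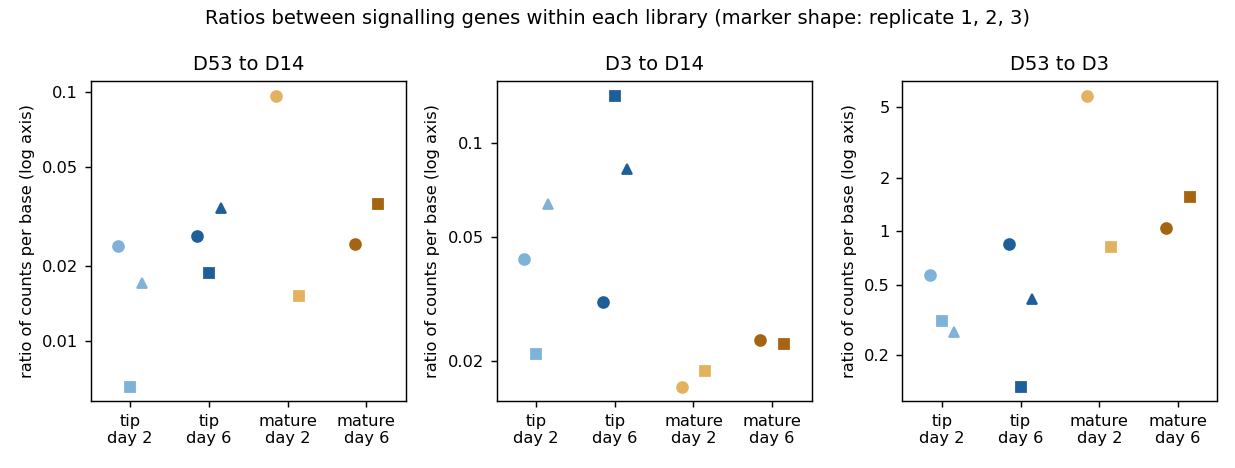
Ratio of counts per base between 2 genes in the same library (y axis, log scale) for D53 to D14, D3 to D14 and D53 to D3, by group (x axis). Each point is a library and its shape gives the replicate number. D53 to D3 runs from 0.132 to 0.850 in tips and from 0.814 to 5.84 in mature root, and no ratio separates the tissues without overlap.

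For each tested strigolactone gene the 3 rows with the most similar profile were sought by Pearson's r of log2 CPM over the 10 libraries. The candidates were 10572 rows with a mean of at least 10 CPM and a description other than expressed or hypothetical protein. These r values are descriptions over libraries that share tissue and depth, and the difference between tissues enters them. For D14 they were LOC_Os11g06720, described as abscisic stress-ripening (r = 0.964), LOC_Os06g04020, a histone H1 (r = 0.954), and LOC_Os09g26620-ext, an auxin-repressed protein (r = 0.945). For D53 they were LOC_Os04g54800, a shikimate kinase (r = 0.980), LOC_Os04g45834, a DUF584 protein (r = 0.955), and LOC_Os02g02490, a phytosulfokine receptor precursor (r = 0.948). All 6 had a higher mean in mature root, as D14 and D53 had; LOC_Os11g06720, for example, averaged 202 CPM in tips and 694 CPM in mature root.

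The nearest rows were less close for the genes without a tissue call. D17 was nearest to LOC_Os08g42410, a transketolase (r = 0.905), LOC_Os01g53880, the auxin response gene OsIAA6 (r = 0.881), and LOC_Os03g02010, a DNA methyltransferase (r = 0.870). D3 was nearest to LOC_Os07g08390, a plant-specific domain protein (r = 0.899), LOC_Os12g41090, a protein kinase of the CAMK class (r = 0.872), and LOC_Os01g51410, a glycine dehydrogenase (r = 0.866).

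Other genes of the pathway were taken from a list of 34 identifiers, of which 18 had a row whose description gave the listed role. The other 16, with the cytochrome P450 genes of the MAX1 family among them, had no such row and are given no values, except LOC_Os12g01360, whose values stand beside those of D53 above without a role. With 26 rows described as SKP1 or cullin, the families that hold the partners of F-box proteins, the list held 44 rows. Of these, 22 were tested, and 13 of the 22 were SKP1 or cullin rows. All rows so described were taken, and which of them act with F-box proteins was not checked. Between tissues, as the mean of both days, 2 of the 22 were higher and 2 lower in the tip, against the 12.2% of all rows that passed. The median log2 fold change was 0.01 over these 22 rows and 0.05 over all tested rows.

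Of 3 transcription regulators, 1 was tested. LOC_Os08g39890-ext, OsSPL14, an SBP-box factor known in rice to shape tillering and to be held back by D53, was opposite in direction to D14 and D53. It averaged 115 ± 83.6 CPM (SD) in 6 tip and 18.4 ± 8.10 CPM (SD) in 4 mature root libraries. Its log2 fold change was 2.65 (SE 0.52, edgeR adjusted p = 0.00712), and it passed with each library left out. Its tissues did not overlap, and the share of all rows with every tip library above every mature root library was not counted. LOC_Os03g29480-ext, the row for nodulation-signaling pathway 1, a GRAS factor needed for strigolactone synthesis, had 1 count in tips and 50 in mature root. The ratio of mature root to tip was 46.7 with an exact 95% interval of 8.01 to 1882 for counting error, and the row failed the filter on low counts. Its mature root libraries ran from 0.809 to 17.4 CPM, and 36 of the 50 counts came from replicate 2 of day 2. Without that library, an alternative added after the data were seen, the ratio was 16.1 (exact 95% interval 2.44 to 679). Its partner for nodulation-signaling pathway 2, LOC_Os03g15680, had 3 counts in tips and 2 in mature root, with a ratio of 0.623 (exact 95% interval 0.0521 to 5.44).

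Of 7 rows for carotenoid synthesis, which feeds the pathway, 6 were tested, 1 was higher and 2 were lower in the tip. The 3 rows for phytoene synthase, the first committed enzyme, did not move together. LOC_Os12g43130 was higher in the tip, at 20.3 ± 15.03 CPM (SD, n = 6) against 4.44 ± 1.15 CPM (SD, n = 4). Its fitted difference was 2.09 on the log2 scale (SE 0.56; edgeR adjusted p = 0.0305). LOC_Os09g38320 was lower in the tip, with 3 counts there and 51 in mature root, a ratio of mature root to tip of 15.9 (exact 95% interval 5.14 to 79.6; edgeR adjusted p = 0.0182). Its libraries ran from 0 to 1.47 CPM in tips and from 2.86 to 6.29 CPM in mature root. It therefore passed the filter on low counts through mature root alone. LOC_Os06g51290-ext averaged 12.2 ± 5.66 CPM (SD) in 6 tip and 38.3 ± 27.8 CPM (SD) in 4 mature root libraries and did not pass (log2 fold change -1.43, SE 0.49; edgeR adjusted p = 0.0775). LOC_Os02g09750-ext, lycopene beta cyclase, which makes the β-carotene that D27 uses, was lower in the tip by -2.60 (SE 0.53; edgeR adjusted p = 0.00835). It averaged 9.45 ± 6.19 CPM (SD) in 6 tip and 70.0 ± 76.0 CPM (SD) in 4 mature root libraries. LOC_Os07g10490, zeta-carotene desaturase, had a log2 fold change of -1.32 (SE 0.47; edgeR adjusted p = 0.0876). DESeq2 called these last 2 uncalled rows, LOC_Os06g51290-ext (adjusted p = 0.0320) and LOC_Os07g10490 (adjusted p = 0.0386), as lower in the tip.

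These calls rested on few libraries. That of LOC_Os12g43130 was lost without any 1 of 7 libraries (adjusted p between 0.0502 and 0.152), namely tip replicates 2 and 3 of day 2, tip replicate 3 of day 6 and each of the 4 mature root libraries. That of LOC_Os09g38320 was lost without mature root replicate 2 of day 2 (adjusted p = 0.0963), replicate 1 of day 6 (adjusted p = 0.105) or replicate 2 of day 6 (adjusted p = 0.0661). That of LOC_Os02g09750-ext was lost without mature root replicate 1 of day 6 (-1.97, adjusted p = 0.0682).

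Of 8 other carotenoid cleavage dioxygenase rows, 2 were tested and 0 passed between tissues with edgeR or DESeq2. Of these 2, 1 had an unadjusted p under 0.05, as did 5563 of all 19234 rows tested. The more abundant, LOC_Os12g44310-ext, averaged 16.6 ± 5.10 CPM (SD) in 6 tip and 29.7 ± 3.83 CPM (SD) in 4 mature root libraries, with a log2 fold change of -0.84 (SE 0.39; edgeR adjusted p = 0.179). LOC_Os02g47510, described as 9-cis-epoxycarotenoid dioxygenase 1, of the family that opens the route to abscisic acid, had 0 counts in tips and 111 in mature root. Its mature root values ran from 0.484 to 42.9 CPM, and 96 of the 111 counts came from replicate 1 of day 6. Against a floor of 3 counts over all tip libraries, the pooled level was at least 34.6-fold lower in the tip, and at least 5.85-fold lower without that library.

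Of 26 SKP1 and cullin rows, 13 were tested and 0 passed between tissues with edgeR or DESeq2. Of these 13, 2 had an unadjusted p under 0.05, as did 5563 of all 19234 rows tested. The most abundant, LOC_Os11g26910-ext, an SKP1-like protein, averaged 330.7 ± 228 CPM (SD) in 6 tip and 160.0 ± 17.8 CPM (SD) in 4 mature root libraries, with a log2 fold change of 0.94 (SE 0.36; edgeR adjusted p = 0.105). LOC_Os05g05700-ext, a cullin, averaged 114 ± 35.6 and 97.5 ± 20.6 CPM, with a log2 fold change of 0.22 (SE 0.37; edgeR adjusted p = 0.733).

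**Figure D5:**
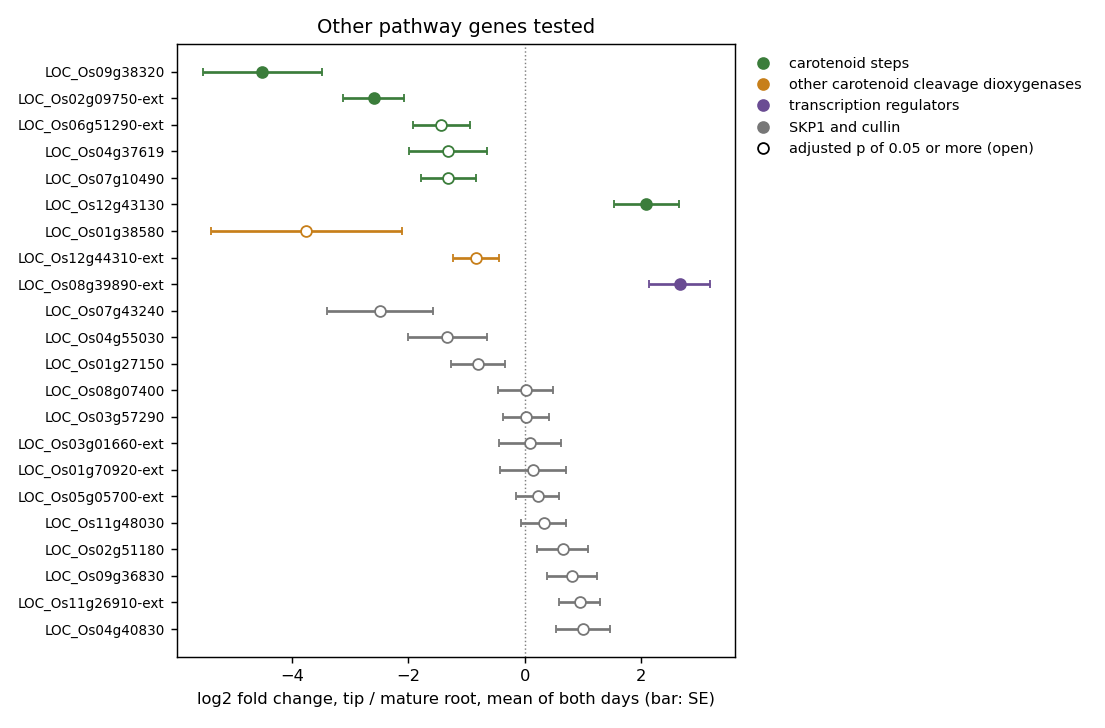
Log2 fold change of tip over mature root (x axis, mean of both days, bars are SEs) for the 22 tested rows of the pathway list (y axis), coloured by role. Filled points have an adjusted p under 0.05: OsSPL14 and 1 phytoene synthase row are above 0, and 1 phytoene synthase row and lycopene beta cyclase are below 0.

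On day 2 alone 0 of the 22 rows passed with edgeR, 5 had an unadjusted p under 0.05 and DESeq2 called 3. Of all rows, 3212 of 19234 had such a p on day 2 and DESeq2 called 1034 of 18908. On day 6 alone 1 was higher and 3 were lower in the tip, against the 7.08% of all rows that passed. OsSPL14 (LOC_Os08g39890-ext) had a log2 fold change of 3.73 (SE 0.78; edgeR adjusted p = 0.0174), lycopene beta cyclase (LOC_Os02g09750-ext) of -4.26 (SE 0.78; edgeR adjusted p = 0.0108) and zeaxanthin epoxidase (LOC_Os04g37619) of -3.73 (SE 0.96; edgeR adjusted p = 0.0393). Zeaxanthin epoxidase had the opposite sign on day 2 (1.09, SE 0.997; edgeR adjusted p = 0.630). Over both days it did not pass (-1.32, SE 0.67; edgeR adjusted p = 0.2145). Its libraries ran from 2.245 to 21.99 CPM in tips and from 4.36 to 140.7 CPM in mature root. Its day 6 value was -1.165 without mature root replicate 1 of day 6. The 3rd lower row was the phytoene synthase LOC_Os09g38320 (edgeR adjusted p = 0.0410), which passed the filter on low counts through mature root alone. Without mature root replicate 1 of day 6 none of these 4 rows passed (adjusted p between 0.136 and 0.650). OsSPL14 was also lost without tip replicate 2 (adjusted p = 0.0545) or mature root replicate 2 (adjusted p = 0.107) of day 6, and zeaxanthin epoxidase without any 1 of the day 6 tips or day 2 mature roots (adjusted p between 0.0614 and 0.0943). LOC_Os09g38320 was lost without any 1 library except tip replicates 2 and 3 of day 2 (adjusted p between 0.0528 and 0.262). In the comparisons of day 6 with day 2, 0 of the 22 rows passed with edgeR: 1 had an unadjusted p under 0.05 in the tip and 3 in mature root, where DESeq2 called 0 and 2. For the change of the tissue contrast from day 2 to day 6, 0 passed with either tool, and 4 had an unadjusted p under 0.05. Of all 19234 rows tested, 2063, 2072 and 1821 had such a p in these 3 comparisons.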

How the data were processed

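Polyadenylated RNA of root tips and mature roots was measured in 10 libraries. The authors deposited raw whole-number counts per row, beside exon numbers and summed exon lengths, per the file headers. Bowtie, SAMtools 0.1.12a, TopHat 1.3.1 and Cufflinks 1.0.3 appear in the submitters' processing notes, with no roles given. The sources used here do not give the build, the counting step or the use of strand, so sense and antisense reads cannot be told apart. CPM are counts per 1000000 of the TMM-scaled library size. Per the labels' protocols, libraries were amplified by PCR, and no molecular identifiers are mentioned. The exact intervals of pooled count ratios and the floors therefore cover counting error only. The intervals of the fitted fold changes come from the quasi-likelihood fit and also include the spread between libraries.

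Columns were matched to libraries by the sample descriptions. The fit used edgeR 4.0.16 and limma 3.58.1 under R 4.3.3: filterByExpr (minimum count 10, minimum total 15) kept 19234 of 33486 rows, TMM scaled the libraries, and a quasi-likelihood model with 1 mean for each of 4 groups gave the 6 comparisons. Adjusted p-values are Benjamini-Hochberg values over all tested rows, called under 0.05. SEs are the absolute log2 fold change divided by the square root of F. Log2 CPM used a prior count of 2, and CPM per kb used the summed exon length. Scripts were tested on simulated data. Replicate libraries differed by more than sampling noise (chi-square per degree of freedom 17.5 to 35.6), so each was counted as its own sample.

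The genes, the lists and the tests were chosen with earlier results of these data known. Named besides the 6 genes were the 3 most similar rows for each tested gene, the row listed beside D53, and, of other pathway rows annotated with their role, those called in any comparison and up to 2 more per role by mean CPM. Gene descriptions are those of the table. The RefSeq gene table of assembly ASM3414082v1 carried none of the table's locus identifiers, so 0 identifiers were matched to it. Alternatives were other scalings, other filters, robust dispersions, DESeq2 1.42.0, replicate blocks, fits of the compared groups alone, and fits that left out 1 library at a time. A further alternative for D53 was its counts summed with those of LOC_Os12g01360.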

Additional observations from a re-analysis of the deposited data

Results flagged for a closer look

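The row of D10 (LOC_Os01g54270-ext) had 1 library far from the other 5 in the root tip set: replicate 1 of day 2 had 2.69 CPM and the rest had 0. That value is 3 counts in the library with the fewest counts in total. With 5 libraries at 0, any count above 0 in the remaining library would have been flagged. The nominal rate of about 1 flag in 20 sets therefore does not hold for this row. In all, 10 sets (5 genes in 2 tissues) were looked at.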

How the results depend on the processing

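In the tissue comparison over both days, D14 passed in 17 of 18 alternatives (log2 fold change -1.67 to -1.30) and D53 in 16 of 19 (-2.79 to -1.66), including the alternatives with a replicate block. Among the passes of D53 is its sum with LOC_Os12g01360 (-2.28, edgeR adjusted p = 0.00739), which is not a measure of D53 alone. The count of 2 called genes fell to 1 without any 1 of the 4 mature root libraries. In those 4 fits 845 to 1363 of all rows were called, against 2345 in the main fit. On day 2 the count of 0 became 1 (D53) with no filter on low counts and with DESeq2. Those alternatives called 1734 of 33486 and 1034 of 18908 rows, against 221 of 19234 in the main fit. On day 6 the count of 1 became 0 with a replicate block, with only the compared groups, and in 4 of 10 fits that left out 1 library. The main fit called 1361 rows, against 579 with the block, 596 with only the compared groups and 113 to 843 in those 4 fits. The fits without a mature root library left 1 library in a group and tested 21484 to 21890 rows, against 19234 in the main fit. In them the set of tested rows thus changed along with the libraries. The cause of these changes in calls was not tested in any alternative. Deviations of same-numbered tip and mature root libraries of the same day from their group means correlated at -0.0206 to 0.0230. With 2 or 3 libraries per group, such values cannot show whether same-numbered pools shared plants. Whether the block's loss of a call reflects a weaker effect was not tested. A block nested in the day could not be fitted for the 2 comparisons of day 6 with day 2. No identifier had rows both with and without -ext, so summing such rows gave no value.

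Of the 22 other pathway rows, the 4 called between tissues became 2 with either replicate block, 5 with no filter, 6 with DESeq2 and 1 to 4 without 1 library. Over all rows 2345 became, in that order, 1266 and 1358, 4063 of 33486, 3569 of 18908, and 845 to 2523. On day 2 the 0 became 1 with no filter and without mature root replicate 1 of day 2, and 3 with DESeq2. Over all rows 221 became 1734 of 33486, 312 of 21484 and 1034 of 18908. On day 6 the 4 became 2 with a replicate block, 1 with the block within day or with only the compared groups, 5 with no filter or DESeq2, and 0 to 4 without 1 library. Over all rows 1361 became 579, 598 and 596, then 2981 of 33486 and 2741 of 18908, and 113 to 1379. For day 6 against day 2 in mature root the 0 became 2 with no filter or DESeq2, and for the difference between days 2 with no filter. Over all rows 0 became 736 of 33486, 375 of 17416 and 554 of 33486.

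The values that turned sign were all uncalled. D3 between tissues on day 2 (0.00) turned to -0.020 with DESeq2 size factors, -0.018 with the DESeq2 test, -0.031 with library totals, -0.034 with no filter, -0.32 with a replicate block and -0.23 with the block within day, and ran from -0.32 to 0.41 without 1 library. Without 1 library D3 ran from -0.39 to 0.098 over both days, from -0.79 to 0.069 on day 6, from -0.62 to 0.26 for day 6 against day 2 in tips (0.006 with no filter), from -0.13 to 0.59 in mature root and from -0.79 to 0.098 for the difference between days. D17 on day 6 turned to 0.29 with the block within day and ran from -0.37 to 0.28 without 1 library. D14 for day 6 against day 2 in mature root ran from -0.43 to 0.11. D53 for day 6 against day 2 in tips turned to -0.048 with library totals, -0.084 with a replicate block and -0.095 when summed with LOC_Os12g01360, and ran from -0.56 to 0.55. In mature root it ran from -1.56 to 0.57 and was 0.23 when summed. Its difference between days turned to -0.058 with the block within day and -0.33 when summed, and ran from -0.49 to 1.64. With 2 to 20 counts per library for D17 and 10 in all for D10, depth limits what can be seen of the synthesis genes.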
